A study of Arabidopsis thaliana with 9 samples.

Results

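The genes described here were those whose transcripts were strongly lowered in the Arabidopsis bdr1,2,3 mutant while keeping most of the wild-type level, or more, in fpa. They were selected on measured values, the counts of a gene per 1000000 counts of a library (CPM). A member was a nuclear gene with a mean of at least 1 CPM in wild type, a mean in bdr1,2,3 of at most 33.3% of wild type, all 3 bdr1,2,3 libraries below all 3 wild-type libraries, and a mean in fpa of at least 67% of wild type. The rule found 100 of the 33323 nuclear genes in the table, or 0.540% of the 18503 nuclear genes that reached 1 CPM in wild type. The fall in bdr1,2,3 and the level in fpa relative to wild type are therefore descriptions and not findings. Position in the genome, function and the values of neighboring genes were not used in the choice.

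RNA was taken from whole seedlings of the Col-0 ecotype, 8 days old, grown on MS plates at 21 °C, per the labels, with 16 h of light and 8 h of dark. The wild type, the bdr1,2,3 triple mutant, which combines the T-DNA insertion alleles bdr1-1, bdr2-1 and bdr3-1, and the fpa-7 single mutant had 3 libraries each, and the methods name 1 triple mutant line. Library totals ran from 8676610 to 26861793 counts. Wild-type replicate 12 was the shallowest and stood apart from the other wild-type libraries, its counts giving a chi-square of 36.9 and 34.5 per degree of freedom against them, compared with 8.36 between those 2. Without it the rule found 108 genes, among them 84 of the 100 members. On the CPM scale, the median gene had a bdr1,2,3 level of 108% of wild type. In bulk seedlings, fewer cells of a type and less RNA per cell cannot be told apart. The summed level of 12 root marker genes ran from 156 to 198 CPM in wild type and from 188 to 207 in bdr1,2,3, that of 8 shoot markers from 17000 to 22400 and from 15900 to 17000, and that of 4 seed storage genes from 0.583 to 7.74 and from 2.05 to 6.18. None of these genes was a member. All of them but 2 seed genes had enough counts for edgeR, which called 0 lower and 1, a shoot marker, higher in bdr1,2,3.

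BORDER (BDR) proteins carry a SPOC domain and the central domain of the elongation factor TFIIS, and are related to negative elongation factors of other eukaryotes. They sit near gene borders, where RNA polymerase II pauses after passing the 3′ end of a gene. The authors propose that they keep this polymerase out of the promoter of a gene that follows closely on the same strand. FPA is an RNA-binding protein that promotes the choice of the proximal polyadenylation site and is best known for promoting flowering.

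Most members started within 250 bp of the end of another gene on the same strand. The intergenic sequences shown here are the whole space between the annotated end of the upstream gene and the annotated start of the member. They are given for those of the 15 lowest members in bdr1,2,3 with a same-strand upstream gene and a gap of at least 10 bases. They come from the RefSeq genome of build TAIR10.1 and run 5′ to 3′ along the strand of the member, where capitals mark an E-box (letters CANNTG) or, on either strand, the core of a promoter element for the general factor TBP (letters TATAAA).

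AT4G11410 (chr4:6947414-6947475, minus strand): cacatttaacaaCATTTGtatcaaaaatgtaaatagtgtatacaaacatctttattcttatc
AT5G52370 (chr5:21261337-21261352, minus strand): aacaaaacccacctag
RSY3 (chr3:8963569-8963769, plus strand): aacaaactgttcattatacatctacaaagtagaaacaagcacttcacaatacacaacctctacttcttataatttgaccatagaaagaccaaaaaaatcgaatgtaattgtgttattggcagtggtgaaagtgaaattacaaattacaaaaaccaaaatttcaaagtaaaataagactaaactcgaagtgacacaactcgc
NdhM (chr4:17831620-17831730, minus strand): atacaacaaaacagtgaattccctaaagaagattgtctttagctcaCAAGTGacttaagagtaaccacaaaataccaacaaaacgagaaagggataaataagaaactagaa
AT4G16850 (chr4:9479879-9480045, plus strand): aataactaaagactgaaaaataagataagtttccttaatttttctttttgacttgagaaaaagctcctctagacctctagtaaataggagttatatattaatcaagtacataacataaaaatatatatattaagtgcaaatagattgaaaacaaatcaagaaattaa
AT1G79740 (chr1:30007191-30007287, minus strand): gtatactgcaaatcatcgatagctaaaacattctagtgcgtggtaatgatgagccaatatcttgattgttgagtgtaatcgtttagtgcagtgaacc
AAE18 (chr1:20633008-20633095, plus strand): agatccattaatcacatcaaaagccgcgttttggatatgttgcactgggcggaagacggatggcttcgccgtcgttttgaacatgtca
AT3G20620 (chr3:7202718-7202747, minus strand): actactttcagttttttttttttttctttt
AT2G01440 (chr2:199281-199490, minus strand): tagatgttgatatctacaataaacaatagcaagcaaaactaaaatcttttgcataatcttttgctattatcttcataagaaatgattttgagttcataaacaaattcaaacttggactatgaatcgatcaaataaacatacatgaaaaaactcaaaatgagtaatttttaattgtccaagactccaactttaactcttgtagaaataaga
AT3G04230 (chr3:1113860-1113913, minus strand): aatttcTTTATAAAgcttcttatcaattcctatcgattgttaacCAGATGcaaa

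The shortest of these gaps had 16 bases and the longest 210. A gap of only 2 bases separated AT4G31310, the lowest member, from its upstream gene. Of the gaps of 1 to 300 bases behind a same-strand upstream gene, 65 belonged to members. Their median GC content was 32.0%, beside 32.9% over 2775 such gaps of other genes. In the 250 bases before the annotated start, which for most members reach into the upstream gene, TGGGCC (either strand, the site II element bound by TCP factors) was found in 6 of 95 protein-coding members (6.32%) and in 17.1% of 18152 protein-coding genes at 1 CPM or more. Among genes with a same-strand upstream gene less than 250 bp away, it was found in 3 of 73 members (4.11%) and in 15.1% of 2786 other genes. CANNTG, which can overlap CACGTG, was present in 58.9% of members and in 56.2% of all genes, TATAAA on either strand in 34.7% and 46.1%, and CACGTG (the G-box) in 2.11% and 7.51%. The share for CACGTG rests on 2 members. Among the closely spaced genes, CANNTG was in 63.0% of members and 60.7% of other genes, TATAAA in 28.8% and 40.6%, and CACGTG in 2.74% and 5.56%. These matches are descriptions of the letters in the window.

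Levels of the members spanned a wide range. The mean in wild type ran from 1.135 to 582 CPM with a median of 7.46. Per kilobase of exon, which allows genes of different length to be compared, the median was 4.73 reads per kilobase per 1000000 counts (RPKM), beside 8.92 RPKM over all genes that reached 1 CPM. In bdr1,2,3 the members stood at a median of 23.8% of wild type, from 0.921% to 33.1%, and 8 of them were at 10% or less. In fpa they stood at a median of 93.1% of wild type, from 67.1% to 497%, with 37 means above and 63 below wild type. The median over all genes at 1 CPM or more was 110% of wild type in fpa. The rule used the wild-type and fpa means of the members, so nothing is read from this difference. For 96 members, all 3 fpa libraries were above all 3 bdr1,2,3 libraries, beside 14.3% of all genes at 1 CPM or more, and for 79 the fpa range overlapped the wild-type range, beside 72.7%. The limits on the bdr1,2,3 and fpa means largely fix the first count, and nothing is read from either. That all bdr1,2,3 libraries lay below all wild-type libraries was fixed by the rule for the members, and it held for 7.29% of all genes at 1 CPM or more. In edgeR's quasi-likelihood test, 85 of the 100 members were called lower in bdr1,2,3, beside 1.88% of all 20413 genes tested, and since the rule used this contrast nothing is read from that count. In the same way, 5 members were called in fpa, 2 of them higher, beside 3.10% of all genes called in either direction. Those called lower in fpa were GLYR2, AT1G50380 and AT2G21860, at 67.3%, 69.3% and 71.1% of wild type.

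**Figure D1:**
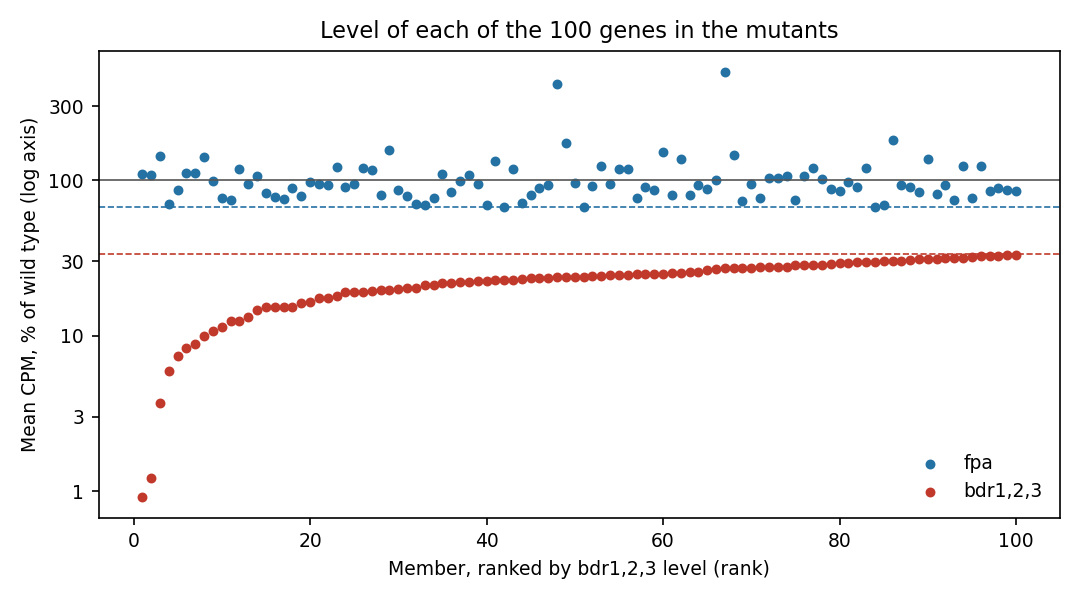
Mean CPM of each of the 100 members in bdr1,2,3 and fpa as a percentage of the wild-type mean on a log axis, with members ranked by the bdr1,2,3 level and dashed lines at the 2 limits of the rule (33.3% and 67%). The bdr1,2,3 points climb steeply from 0.921% and then flatten toward the limit, while the fpa points scatter around 100% along the whole ranking, with a highest value of 497%.

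The values just inside and just outside the limits of the rule lay close together. Just inside the limit on the fall were AT4G17483, a hydrolase family gene, at 33.1% and AT3G26922, an F-box family gene, at 32.9% of wild type, and just outside were AT1G20950 at 33.4% and AT2G33600 at 33.8%. A limit of 50% gave 226 genes. AT5G25570 and AT5G27895 had the lowest means in wild type, 1.135 and 1.164 CPM, while AT5G08600 and AT4G21585 missed the limit of 1 CPM with 0.997 and 0.959. On the fpa side AT2G18100 was just inside at 67.1% and GLYR2 (AT1G17650) at 67.3%, and AT4G20760 at 65.8% and AT1G09910 at 62.25% were just outside. The lowest wild-type library exceeded the highest bdr1,2,3 library by 1.18-fold in MGD3 (AT2G11810) and by 1.201-fold in AT5G28440, and this ratio was 0.942 in AT2G26150 and 0.932 in AT3G06520, which the rule left out.

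The gene with the largest fall was AT4G31310, on chromosome 4 from 15191220 to 15192596 on the plus strand, which codes for an AIG2-like protein of a family named after an avirulence-induced gene. It had 16.5, 13.9 and 16.0 CPM in wild-type replicates 1, 12 and 5, 0.223, 0 and 0.206 CPM in bdr1,2,3 replicates 2, 4 and 7, and 13.4, 16.4 and 21.4 CPM in fpa replicates 3, 6 and 8. These are 5, 0 and 3 counts in bdr1,2,3 beside 312, 121 and 431 in wild type, a fold of 109 between the means. AT4G31300 (PBA1), a proteasome subunit gene that ends 2 bp before it, had 94.1 CPM in wild type and 93.7 CPM in bdr1,2,3.

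AT4G11410, on chromosome 4 from 6944891 to 6947413 on the minus strand, codes for a Rossmann-fold protein of the NAD(P)-binding superfamily. Its level was 26.8, 23.5 and 25.1 CPM in wild type and 0.223, 0.685 and 0 CPM in bdr1,2,3, with 29.5, 24.3 and 27.1 CPM in fpa. The wild-type and fpa ranges overlapped and the bdr1,2,3 libraries held 5, 17 and 0 counts. EIF3A, which codes for a translation initiation factor subunit and ends 62 bp upstream, stood at 79.6 CPM in wild type and 98.8 CPM in bdr1,2,3.

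BDR1 itself (AT5G25520, chromosome 5, 8885088 to 8889904, plus strand) was a member, and carries 1 of the T-DNA insertions of the triple mutant. It had 35.9 ± 10.6 CPM (SD, n = 3) in wild type, 1.31 ± 0.581 in bdr1,2,3 and 51.1 ± 4.35 in fpa. Whether the remaining reads belong to whole transcripts cannot be read from such counts. BDR2 (AT5G11430), at 16.7 ± 4.45 CPM in wild type and 9.95 ± 1.36 in bdr1,2,3, and BDR3 (AT2G25640), at 9.46 ± 3.8 and 5.93 ± 2.51, did not meet the rule, although the mutant carries insertions in them too. In edgeR BDR2 was called lower (log2 fold change -0.85, adjusted p = 0.0177) and BDR3 was not (adjusted p = 0.226). FPA (AT2G43410) was at 51.9 ± 15.4 CPM in wild type and 43.4 ± 4.09 CPM in fpa-7, with overlapping ranges, so its count does not check the fpa label. The member AT5G25570, described as a polyamine-modulated factor 1-binding protein, starts 16.7 kb from BDR1. It had 1.48, 0.692 and 1.23 CPM in wild type and 0, 0.202 and 0 CPM in bdr1,2,3. Within 500 kb of each BDR gene lay 2 other members for BDR1 and 1 for BDR2, and none for BDR3, out of 125, 213 and 161 genes at 1 CPM or more. Any part that the insertions have in the level of these linked genes was not tested.

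Next in the ranking came AT5G52370, RSY3 and AT1G20816. AT5G52370, annotated as a 28S ribosomal S34 protein, had 22.4, 18.1 and 21.3 CPM in wild type and 0.89, 3.02 and 0.687 CPM in bdr1,2,3. RSY3 (RASPBERRY 3, AT3G24560), a gene needed for embryo development, had 6.58, 3.23 and 7.67 CPM in wild type and 0.134, 0.564 and 0.756 CPM in bdr1,2,3. AT1G20816, described as an outer envelope pore-like protein, had 5.94, 4.15 and 5.88 CPM in wild type and 0.312, 0.403 and 0.687 CPM in bdr1,2,3. As the rule required, the highest bdr1,2,3 library was below the lowest wild-type library in each of these 3 genes. The fpa libraries reached at least 15.4, 6.28 and 5.25 CPM.

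NdhM (AT4G37925) codes for a subunit of the chloroplast NAD(P)H dehydrogenase-like (NDH) complex, which carries electrons around photosystem I. It had 116, 37.5 and 90.1 CPM in wild-type replicates 1, 12 and 5, 6.14, 9.83 and 8.17 CPM in bdr1,2,3, and 113, 129 and 103 CPM in fpa. Wild-type replicate 12 was far below the other 2 and above each bdr1,2,3 library, as the rule required. Its upstream gene SHM1, for the serine hydroxymethyltransferase of photorespiration, was at 1194 CPM in wild type and 1283 CPM in bdr1,2,3.

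The other members among the 15 lowest differed in kind. AT4G16850, an uncharacterized gene behind the Polycomb gene VRN2, stood at 10.7% of wild type, and AT1G79740, described as a hAT transposon superfamily gene, at 11.3%. AAE18 (acyl-activating enzyme 18) stood at 12.4%, AT3G20620, an F-box family-like gene, at 12.5%, and AT2G01440, for a DEAD/DEAH box RNA helicase, at 13.2%. AT1G08530, described as chitinase-like, was at 14.5%, and AT3G04230, for a protein with the fold of ribosomal protein S5 domain 2, at 15.2%. AT2G01440 had the highest CPM of these 7, with 34.9, 29.4 and 42.4 CPM in wild type and 5.83, 4.96 and 3.30 CPM in bdr1,2,3.

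**Figure D2:**
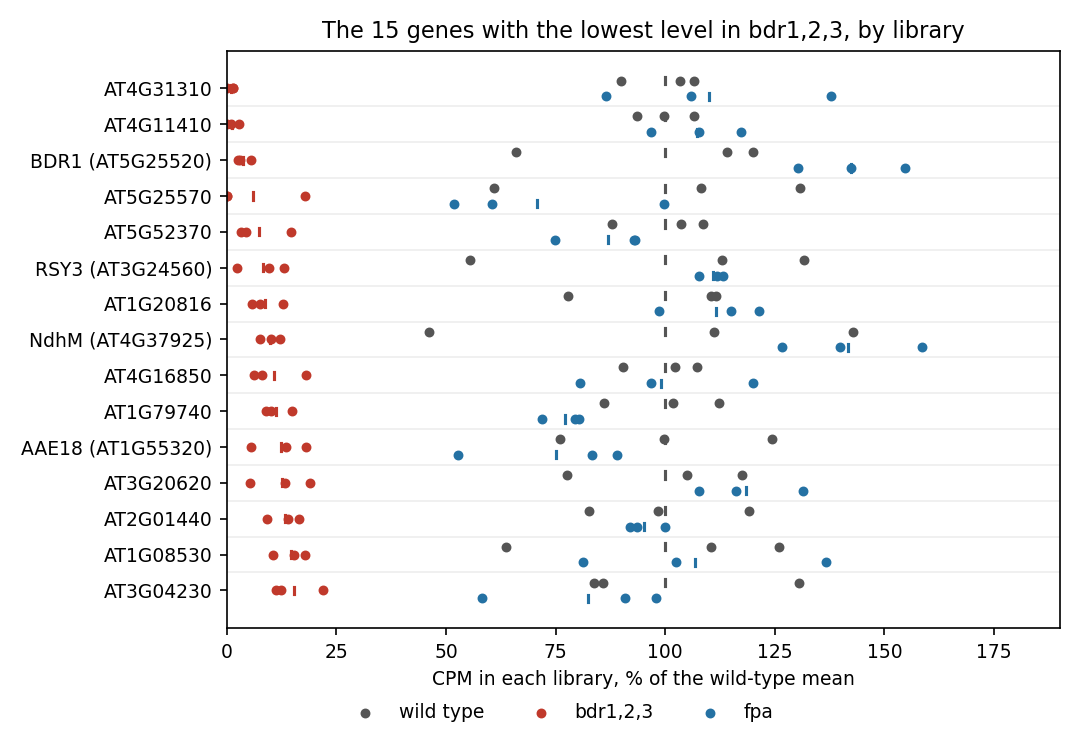
CPM of the 15 lowest members in each library as a percentage of the wild-type mean of that gene (points), with the mean of each genotype as a short line. All bdr1,2,3 points lie below 25%, most wild-type and fpa points intermix around 100%, and the lowest wild-type point of NdhM is replicate 12.

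The 10 members with the highest CPM in wild type, which is not corrected for length, stood at 9.92% (NdhM) to 32.8% (CSD2) of wild type in bdr1,2,3. CSD2 (AT2G28190), the chloroplast copper/zinc superoxide dismutase, had 461, 775 and 511 CPM in wild type, 177, 203 and 192 CPM in bdr1,2,3 and 534, 510 and 524 CPM in fpa. The bdr1,2,3 libraries lay close together and the spread came from wild type, where replicate 12 was highest. AT5G03545 (AT4, also named IPS2), a phosphate starvation RNA known as a target mimic of the microRNA miR399, had 182, 324 and 167 CPM in wild type and 41.6, 66.6 and 97.7 CPM in bdr1,2,3. In fpa it had 135, 277 and 192 CPM, so that it varied widely within every genotype. PnsL1 (AT2G39470), a lumenal subunit of the NDH complex, had 199, 172 and 171 CPM in wild type and 45.5, 57.4 and 58.2 CPM in bdr1,2,3.

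Next in level came AT3G21670 (NPF6.4), a nitrate transporter family gene, at 68.7 ± 16.9 CPM in wild type and 18.9 ± 7.705 in bdr1,2,3 (SD, n = 3). AT2G21860, for a protein resembling violaxanthin de-epoxidase, was at 63.2 ± 2.35 and 14.6 ± 1.62 CPM, and AT1G73650, of the DUF1295 steroid dehydrogenase-like family, at 56.0 ± 7.32 and 13.95 ± 1.78 CPM. AT2G35840, a sucrose-phosphate phosphatase family gene, was at 54.8 ± 5.49 and 13.7 ± 1.36 CPM. AT3G59980, for an OB-fold nucleic acid-binding protein, had the lowest remaining share of this group, 15.4%, going from 51.4 ± 9.41 to 7.89 ± 0.377 CPM. AT1G50380, a prolyl oligopeptidase family gene, went from 46.8 ± 5.93 to 10.6 ± 0.545 CPM. The spread between bdr1,2,3 libraries was small beside the distance from wild type in these 6 genes, the least so in NPF6.4. The rule set a least distance for every member, so this only describes them.

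The functions of the members were sorted by words in the RefSeq descriptions into 17 lists that cover every gene. Counts are given beside the 0.540% of all genes that were members, and no test was made. The words were revised after the members' descriptions were seen, so these shares only describe the members. The list for photosynthesis, plastid and light held 7 members of 253 genes (2.77%), and that for DNA repair and replication 5 of 183 (2.73%). Protein kinases held 1 of 738 genes (0.136%), namely AT1G72540, and transcription factors, elongation and chromatin 2 of 919 (0.218%), namely BDR1 and OFP11, an ovate family protein. Uncharacterized genes were 14 of 1775 (0.789%), and 21 members of 6447 genes had a name that fell in none of the lists.

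**Figure D3:**
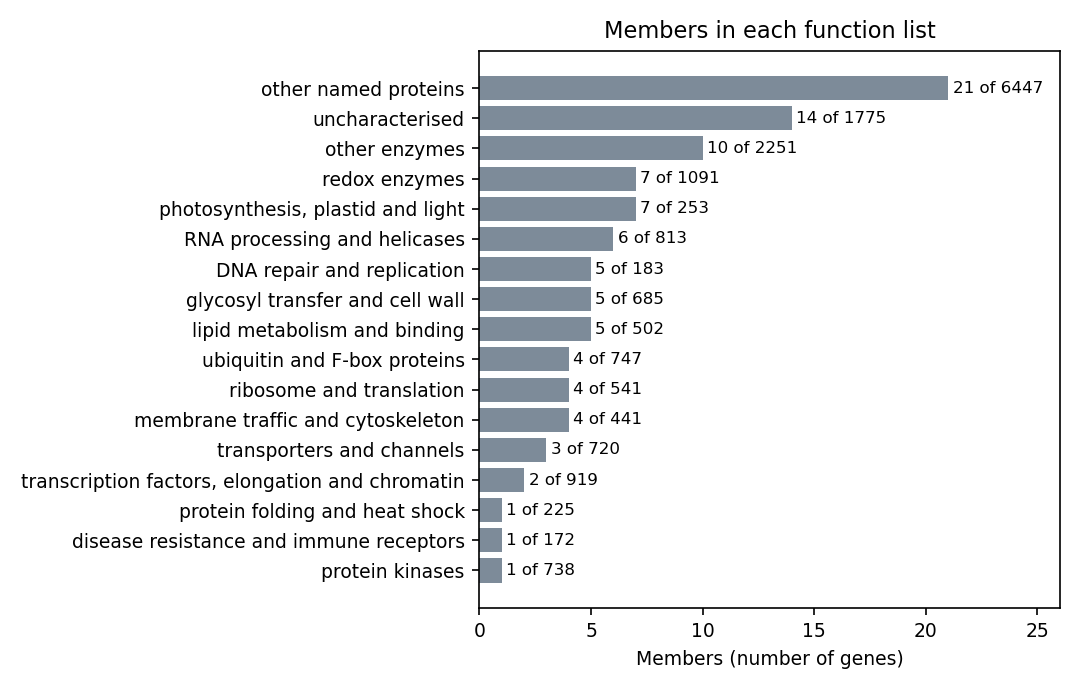
Number of members in each of the 17 function lists, with the number of genes of the list that reached a mean of 1 CPM in wild type printed beside the bar. No list holds more than 21 of the 100 members, and the members are spread over all lists.

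Photosynthesis, plastid and light genes among the members were PnsL1, NdhM, AT2G21860, PHYE, AT3G26080, AT1G20816 and EGY3. Their median was 19.4% of wild type in bdr1,2,3 and 112% in fpa. PHYE (AT4G18130), for the red and far-red light receptor phytochrome E, had 33.6, 20.7 and 31.0 CPM in wild type, 6.28, 8.46 and 6.53 CPM in bdr1,2,3 and 24.5, 22.8 and 18.1 CPM in fpa. The plastid lipid-associated fibrillin gene AT3G26080 stood at 13.4 ± 4.83 and 2.55 ± 0.866 CPM, and EGY3, a gene of the family of plastid site-2 proteases, at 4.36 ± 1.19 and 0.8445 ± 0.304 CPM. Over the whole list of 258 tested genes, edgeR called 10 lower and 1 higher in bdr1,2,3, where 1.88% of all tested genes were called lower. Without the members 3 of the list were called lower and the median log2 fold change was -0.02.

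NdhM and PnsL1 were compared with the rest of their complex. The other 14 nuclear genes with an NDH subunit symbol stood at 73.8% to 136% of wild type in bdr1,2,3, with a median of 111%. The lowest of them was NdhO at 81.9 ± 8.51 CPM beside 111 ± 5.22 in wild type, with 58.6 ± 3.92 CPM in fpa. This list was made after the members were known and was not tested.

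CSD2 was set beside the other superoxide dismutases in a list made in the same way. Its cytosolic relative CSD1 was at 166 ± 15.6 CPM in wild type and 119 ± 16.4 in bdr1,2,3, and CCS, the copper chaperone of both, at 103 ± 6.71 and 54.7 ± 4.35 CPM. FSD1, an iron superoxide dismutase of the chloroplast, had the highest ratio of the list, 541 ± 27.6 CPM beside 346 ± 83.3 in wild type. The 7 listed genes other than CSD2 ran from 53.0% to 156% of wild type, with a median of 111%.

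Phosphate starvation genes were listed in the same way, after the members were known. They share the same libraries and are not separate observations, so the count that follows is a description and no test. AT5G03545 and MGD3, a galactolipid synthase gene known to rise when phosphate is scarce, were members, and of 7 further well-known phosphate starvation genes at 1 CPM or more, 6 had all bdr1,2,3 libraries below all wild-type libraries, where the share over all genes was 7.29%. Their levels ran from 26.4% of wild type in IPS1 to 73.3% in PHT1;4, with a median of 57.2%. IPS1 was low and variable in wild type, at 2.14 ± 1.55 CPM. MGD2 was at 26.6 ± 6.31 CPM in wild type and 10.6 ± 5.11 in bdr1,2,3, and SQD2, for sulfolipid synthesis, at 221 ± 13.8 and 126 ± 23.5 CPM. These genes also varied within genotypes. MGD3 had 19.0, 26.4 and 12.7 CPM in wild type, 3.12, 4.55 and 10.8 CPM in bdr1,2,3 and 7.30, 47.2 and 17.5 CPM in fpa, where its range covered all of the wild-type values. The phosphate supply of the plates was not tested.

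Redox enzymes were 7 members of 1091 genes (0.642%). Beside CSD2, AT1G73650 and AT4G11410 they included GLYR2, for a glyoxylate reductase, at 31.1 ± 1.96 CPM in wild type and 7.42 ± 1.08 in bdr1,2,3. In fpa GLYR2 was at 20.9 ± 2.71 CPM, close to the limit of the rule, and edgeR called it lower there too. ChlAKR (AKR4C9), AT3G12940 and AT5G16960 completed the list at 19.0% to 30.3% of wild type.

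RNA processing genes were 6 members of 813 (0.738%) and ribosome and translation genes 4 of 541 (0.739%). The former held both DEAD or DEAH box helicase members, AT2G01440 and AT2G01130 (17.3 ± 5.27 CPM in wild type and 4.78 ± 1.355 in bdr1,2,3), out of 28 such genes at 1 CPM or more. AT1G79080, for a pentatricopeptide repeat protein, was the 1 member of 231 genes of that family, at 13.7 ± 4.01 and 4.04 ± 1.68 CPM. AT4G15520, for a tRNA/rRNA methyltransferase family protein, was at 13.0 ± 1.84 and 4.11 ± 1.45 CPM. Among ribosomal genes, AT1G52370, for a protein of the L22p/L17e family, went from 12.3 ± 2.74 to 2.22 ± 0.692 CPM and AT4G01790 from 1.22 ± 0.199 to 0.302 ± 0.1555 CPM. Of 309 genes described as ribosomal proteins, 4 were members, and the others had a median of 105% of wild type.

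DNA repair and replication genes included AT1G27410, for a metallo-beta-lactamase family repair protein (6.88 ± 0.757 CPM in wild type and 1.40 ± 0.618 in bdr1,2,3), and AT1G12400, for a small subunit of the repair factor TFIIH (5.63 ± 1.99 and 1.13 ± 0.407 CPM). AT1G18090, a 5′ to 3′ exonuclease family gene, stood at 31.2%, and AT5G41980, described only as a nuclease, at 31.1%. CTF7 (AT4G31400), an acetyltransferase needed for cohesion between sister chromatids, had 1.86, 1.15 and 0.968 CPM in wild type and 0.223, 0.443 and 0.412 CPM in bdr1,2,3. In fpa it had 6.30, 6.85 and 6.62 CPM, the highest fpa level relative to wild type among the members, at 497%.

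Lipid genes were 5 members of 502 (0.996%). Beside MGD3 and AAE18 these were CDS4, a CDP-diacylglycerol synthase gene (13.6 ± 2.08 CPM in wild type and 3.84 ± 0.634 in bdr1,2,3), AT5G45560, with a pleckstrin homology domain (7.68 ± 0.644 and 1.95 ± 0.709 CPM), and LpxK, named after the lipid A pathway of bacteria (2.40 ± 0.4975 and 0.474 ± 0.309 CPM). The list for glycosyl transfer and cell wall held 5 of 685 genes (0.730%). It included 3 of 92 UDP-glycosyltransferase genes, AT5G24750, AT3G46650 and AT4G14090, and the other genes of that family had a median of 103% of wild type. AT4G14090, which acts on anthocyanins, had 2.28, 2.07 and 3.31 CPM in wild type, 0.312, 0.887 and 0.618 CPM in bdr1,2,3, and 8.47, 12.3 and 10.9 CPM in fpa. All 3 fpa libraries were thus above all wild-type libraries, at 413% of the wild-type mean. RAY1 (AT1G70630), an arabinosyltransferase gene, was at 3.21 ± 0.841 and 0.762 ± 0.768 CPM.

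Transporter genes were 3 members of 720 (0.417%). NPF6.4, the auxin carrier-like gene PILS4 (AT1G76530, 6.96 ± 0.574 CPM in wild type and 2.03 ± 1.95 in bdr1,2,3) and SULTR4;2, which releases sulfate from the vacuole (5.22 ± 0.456 and 1.503 ± 0.117 CPM), stood at 27.5%, 29.1% and 28.8% of wild type. In the same list 24 other genes were called lower and 2 higher, of 772 tested, where 1.88% of all tested genes were called lower.

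Membrane traffic and cytoskeleton genes were 4 of 441 (0.907%). RANGAP2, for a GTPase activator of Ran, went from 14.7 ± 2.82 to 4.36 ± 1.04 CPM, and TON1B, needed to place the band of microtubules that marks the division plane, from 11.7 ± 0.419 to 3.31 ± 0.522 CPM. VAMP723, a vesicle SNARE gene, went from 5.75 ± 0.582 to 1.13 ± 1.39 CPM, with a spread in bdr1,2,3 larger than its mean. Ubiquitin and F-box genes were 4 of 747 (0.535%), led by AT3G20620 and by AT2G31290, described as a ubiquitin carboxyl-terminal hydrolase, at 6.75 ± 0.566 and 1.53 ± 0.715 CPM. RPM1 (AT3G07040), a receptor of the plant immune system that detects Pseudomonas effectors, was the 1 member of 172 immune receptor genes. It had 10.5, 4.84 and 8.26 CPM in wild type, 2.18, 2.94 and 1.58 CPM in bdr1,2,3 and 9.41, 7.70 and 6.77 CPM in fpa.

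The list of other enzymes gave 10 of 2251 genes (0.444%), led by AT2G35840 and AT1G50380, with AT3G08840, a D-alanine ligase family gene, at 33.4 ± 3.26 and 8.55 ± 1.65 CPM and AT1G28570, an SGNH esterase family gene, at 21.5 ± 3.82 and 6.75 ± 1.02 CPM. Among uncharacterized members the highest in level were AT1G55675, at 35.3 ± 6.55 and 9.06 ± 1.22 CPM, AT1G06240, described as a ferritin-like protein, at 25.8 ± 0.614 and 3.95 ± 1.52 CPM, AT1G73470, at 25.2 ± 6.69 and 5.36 ± 0.613 CPM, and AT3G55760, at 17.6 ± 2.68 and 4.90 ± 0.767 CPM. Members with a name outside the lists included AT3G15410, a leucine-rich repeat gene (36.5 ± 2.425 and 6.36 ± 0.633 CPM), and AT2G31440, for a protein resembling the APH1 subunit of gamma-secretase (42.2 ± 4.57 and 6.44 ± 1.04 CPM). By the RefSeq biotype, protein-coding genes made up 95 of the 100 members. AT5G03545 is counted among them, although it is described above as an RNA that mimics a microRNA target. The other 5 were 3 pseudogenes, 1 transcribed pseudogene (AT1G16550) and 1 noncoding RNA (AT4G14548).

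Across these functions, most members had their place closely behind another gene. The nearest upstream protein-coding gene lay on the strand of the member for 92 of 100 members (92.0%, Wilson 95% interval 85.0% to 95.9%), and for 50.8% of 18485 genes at 1 CPM or more. Without wild-type replicate 12 this share was 91.7%. Genes chosen by the same rule with bdr1,2,3 and fpa exchanged had it on the same strand in 11 of 23 cases (47.8%), and genes raised in bdr1,2,3 by the mirrored rule in 10 of 14 (71.4%). On the 3′ side the nearest gene was on the same strand for 47.0% of members and 50.7% of all genes. The median gap behind a same-strand upstream gene was 88 bp over 80 members that did not overlap it (95% interval of the median 62 to 150 bp) and 699.5 bp over 9024 of all genes. Another 12 members overlapped their upstream gene on the same strand.

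Sorted by strand and gap, the share of genes that were members was highest for short gaps on the same strand. It was 3.28% of 366 genes that overlapped the upstream gene, 3.45% of 1276 genes with a gap under 100 bp, 1.51% of 1256 with a gap of at least 100 but under 250 bp, 0.426% of 1642 with at least 250 but under 600 bp, and 0.181% of 3322 at 1200 bp or more. With the upstream gene on the opposite strand it was 0.450% of 667 genes that overlapped it, 0 for gaps under 100 bp, 0.192% of 1042 genes with at least 100 but under 250 bp, and 0.0232% of 4318 genes at 1200 bp or more. Most closely spaced tandem genes were nevertheless no members. Of the 1232 other genes with a same-strand gap under 100 bp, 95 were called lower and 4 higher, where 1.88% of all tested genes were called lower. Their median log2 fold change was -0.12, beside 0.01 over all tested genes. Within the members, the gap and the remaining level had a Spearman correlation of 0.23 over 80 genes, given as a description, since the members share their libraries.

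**Figure D4:**
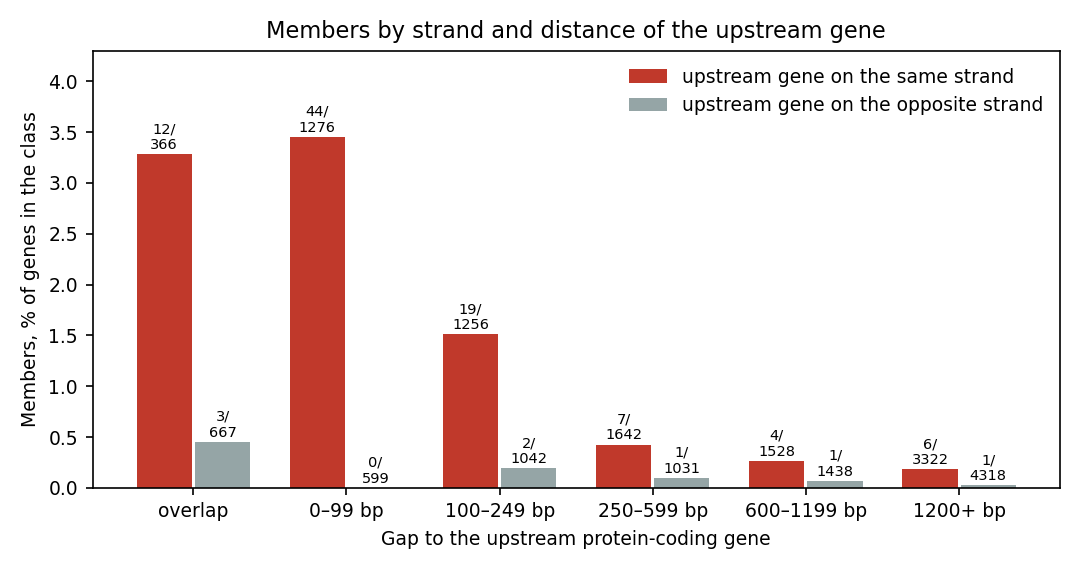
Share of genes at a mean of 1 CPM or more in wild type that were members, in classes by the strand of the nearest upstream protein-coding gene and by the gap to it, with members over genes above each bar. The bars for the same strand are tallest for overlapping genes and gaps under 100 bp (3.28% and 3.45%) and fall to 0.181% at 1200 bp or more, and those for the opposite strand stay below 0.5%.

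The upstream genes were well expressed. The same-strand upstream genes of members had a median of 21.2 RPKM in wild type, beside 4.63 RPKM for the same-strand upstream genes of all genes, a ratio of 4.58 ± 0.405 (SD over the 3 wild-type libraries). It was 4.12 without wild-type replicate 12. The upstream gene had the higher RPKM in 67 of 92 such pairs (72.8%) among members and in 36.7% of 9239 pairs among all genes. The members themselves had a median of 5.38 RPKM in these pairs, and all genes 8.92. Among genes with a same-strand upstream gene less than 250 bp away or overlapping, sorted by the RPKM of that gene into 3 classes of 956 genes, 0.732%, 2.20% and 4.92% were members from the lowest to the highest class.

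The levels of the upstream genes in bdr1,2,3 were not used by the rule and were tested. Of 89 upstream genes with enough counts, edgeR called 0 lower and 1 higher in bdr1,2,3 (1.12%), beside 2.48% of all tested genes in either direction. At an unadjusted p under 0.05 there were 12 of them (13.5%), beside 15.1% of all tested genes, and DESeq2 also called 1. Their median log2 fold change was 0.02, from -0.66 to 0.63. The called gene was AT1G73655, a peptidyl-prolyl isomerase gene behind which the member AT1G73650 starts after 42 bp. It had 135, 94.7 and 109 CPM in wild type and 185, 171 and 205 CPM in bdr1,2,3, 0.63 higher on the log2 scale with a standard error of 0.13 (edgeR, Benjamini-Hochberg adjusted p = 0.0193). This call was lost in a fit of only wild type and bdr1,2,3 and without wild-type replicate 5 or bdr1,2,3 replicate 2 or 7. Downstream of the members, 1 of 72 tested genes was called, UBP22 (AT5G10790), which overlaps the member AT5G10800 on the other strand by 383 bp and can share its reads. It went from 13.3 ± 3.63 to 7.84 ± 0.734 CPM, and edgeR gave -0.87 on the log2 scale with a standard error of 0.18 and an adjusted p of 0.0173. AT2G30690, the downstream neighbor of the member AT2G30695, also overlaps its member on the other strand and can share its reads. It had the lowest value of these genes, -4.80 with a standard error of 1.56, and did not pass the test (edgeR adjusted p = 0.163).

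**Figure D5:**
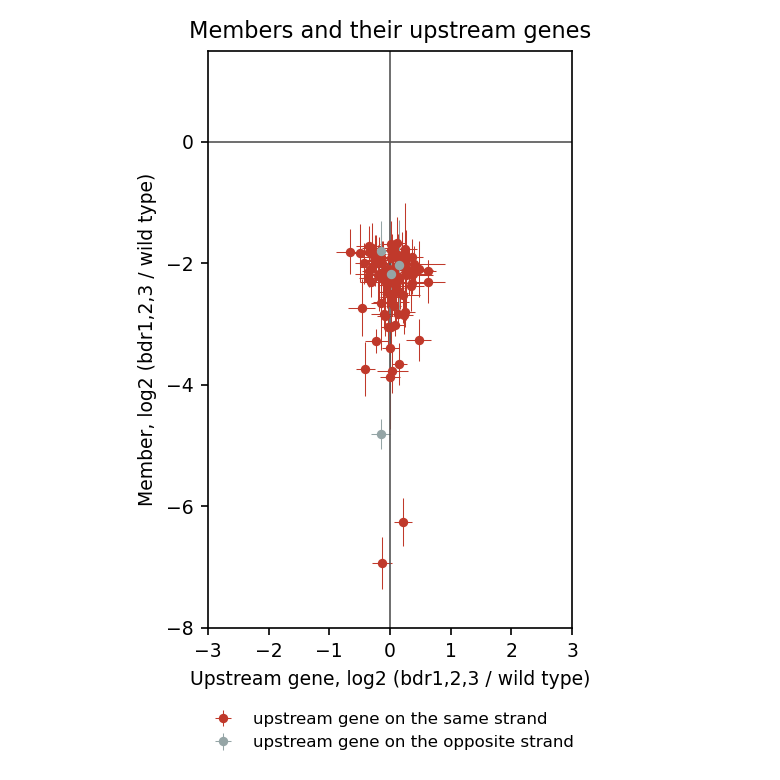
Log2 fold change between bdr1,2,3 and wild type of each member (vertical axis) and of its upstream protein-coding gene (horizontal axis) from edgeR, with standard errors as bars, for the 90 members whose upstream gene was tested and was no member. The upstream genes lie between -0.66 and 0.63 and the members at -1.67 or below, so that the points form a vertical band around 0.

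The libraries of 3 strongly expressed upstream genes are given as examples. For NdhM, SHM1 had 1377, 935 and 1269 CPM in wild type and 1394, 1269 and 1186 CPM in bdr1,2,3. For AT1G79740, NADP-ME4, a malic enzyme gene, had 242, 316 and 297 CPM in wild type and 286, 311 and 204 CPM in bdr1,2,3. For PnsL1, RPL23AA, a ribosomal protein gene, had 145, 104 and 126 CPM in wild type and 153, 137 and 185 CPM in bdr1,2,3. The ranges of the genotypes overlapped in each of these 3 upstream genes. Other members had a weaker upstream gene, as AT5G52370, which was at 24.5 RPKM in wild type and AT5G52380 before it at 4.96 RPKM.

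In 12 of 88 protein-coding pairs on the same strand, the member and its upstream gene coded for related proteins (13.6%), taken as an identity of at least 30% over at least 50% of the shorter protein. Among pairs that overlapped or lay less than 250 bp apart this was 7 of 73 for members (9.59%) and 8.64% of 2755 for other genes. TON1B and TON1A shared 86.3% of their residues, VAMP723 and its neighbor 83.9%, PILS4 and AT1G76520 83.2%, the fibrillin AT3G26080 and AT3G26070 88.4%, and scpl5 and scpl2, serine carboxypeptidase-like genes, 85.4%. Since only uniquely aligned reads were counted, reads from stretches that such copies share are missing from both, and the level of these members is less certain. Beyond these pairs, 46 members overlapped a neighboring gene on 1 side or both, where a read can belong to either gene because the strand setting of the counting is not given in the sources used here.

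Not all members had such a place. For 18 of them the upstream gene was on the opposite strand or at least 600 bp away. Among these were CSD2, with its upstream gene on the opposite strand at 672 bp, NPF6.4 with a gap of 4008 bp, MGD3 with 14922 bp, the uncharacterized gene AT2G15020 with 7613 bp, PP2-A6 with 9288 bp, and BDR1 itself. AT2G15020 was at 9.61 ± 1.65 CPM in wild type and 2.26 ± 1.34 in bdr1,2,3, and PP2-A6, of a phloem protein family, at 1.76 ± 0.938 and 0.403 ± 0.106 CPM. The lowest of the 18 after BDR1 was AT1G06250, a hydrolase family gene, at 17.4% of wild type. AT5G27895 and AT1G72540 overlapped an opposite-strand gene by 571 and 930 bp, and neither of those 2 upstream genes was in the count table.

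With all annotated genes counted as neighbors, 2 pairs of members were adjacent. AT1G06240 and AT1G06250 converged with an overlap of 121 bp, and the pseudogenes AT5G28440 and AT5G28430 followed each other on the same strand, less than 250 bp apart. Since only protein-coding genes were taken as upstream genes above, both of these pseudogenes were assigned to AT5G28442, and AT5G28440 lies within the gap of 925 bp given to AT5G28430. Over the 5 chromosomes, the members made up 0.575%, 0.569%, 0.569%, 0.569% and 0.441% of the genes at 1 CPM or more. Their median exon length of 1620 bp and median of 5 exons stood beside 1800 bp and 5 exons over all these genes.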

How the data were processed

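Raw counts per gene were deposited by the authors for 33602 identifiers and 9 libraries, from 49 bp single-end reads. The submitters' processing notes name TopHat2 2.0.8, SAMtools 1.2, featureCounts, R 3.3.2, DESeq2 1.14.1 and TAIR10. A table of normalized counts, which lacks wild-type replicate 12, was not used, and 0 columns were left out for want of a sample. CPM is the count over the column sum times 1000000. All genes, those of the organelles included, were fitted together with edgeR 4.0.16 in R 4.3.3 (filterByExpr, TMM, quasi-likelihood, 3 genotypes, two-sided, Benjamini-Hochberg, adjusted p under 0.05), after a test on simulated counts. Each standard error of a log2 fold change was back-calculated as its absolute value over the square root of the F statistic of this test. The methods describe biological triplicates without saying how seedlings were pooled, so p-values measure the spread between these samples. Gene borders, neighbors, descriptions and sequence come from RefSeq TAIR10.1, which held 98.5% of the nuclear identifiers, and borders can differ from those the authors counted on. Depth limits genes near 1 CPM most, and intervals on shares cover counting error only.

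The members, lists and tests were chosen with earlier results of these data known. The word lists for function were revised after the members' descriptions were seen, and the NDH, superoxide dismutase and phosphate lists were made after the members were known. Named genes are the BDR genes and FPA, the 15 members lowest in bdr1,2,3, the 10 highest in wild type, up to 4 highest per list with 3 members or more, the 2 genes on each side of each limit, and the neighbors of these. Others (CTF7, RPM1, RAY1, AT4G14090, LpxK, GLYR2, OFP11 and the members far from a tandem neighbor among them) were named after their values were seen. Alternatives were DESeq2 1.42.0, other scalings, filters, limits and neighbor sets, and each library left out. Python 3.11.15, pandas 2.3.3, numpy 2.4.6, scipy 1.17.1, biopython 1.88 and matplotlib 3.10.9 were used.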

Additional observations from a re-analysis of the deposited data

How the results depend on the processing

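The rule gave 105 genes with TMM or DESeq2 scaling, with 89 and 88 of the 100 members among them, 226 at a limit of 50% and 59 at 25%, and 96 to 123 with 1 library left out. In every such omission, 65 members met the rule. Genes called lower in bdr1,2,3 (384) were 639 with DESeq2, 234 with only wild type and bdr1,2,3 in the fit and 218 to 468 with 1 library left out. Those called higher (123) were 243, 68 and 57 to 188. In fpa, 371 were called lower and 262 higher. These were 836 and 585 with DESeq2, 207 and 181 with only wild type and fpa, and 102 to 603 and 97 to 325 with 1 library left out. Without a filter 575 were lower, and with at least 10 counts in every library 156 were higher. Called upstream genes (1 of 89) were 0 with only wild type and bdr1,2,3, where 7 had an unadjusted p under 0.05, and 0 to 2 with 1 library left out. The share with a same-strand upstream gene was 83.2% at the limit of 50%, and 94.0% with neighbors only among counted genes, an alternative chosen after seeing the data, as was leaving out wild-type replicate 12 for position. The median gap ran from 71.5 to 90.5 bp. The ratio of upstream levels was 5.44 in CPM and 4.12 to 4.69 with 1 wild-type library left out. No paired analysis was possible because the genotypes share no replicate numbers. Falls under a few counts per library, as in AT5G25570, are limited by depth.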
